A study of Mus musculus with 16 samples.

Results

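The 10 immediate early genes described here were followed across CD4-positive T cells of the mouse uterus and its draining lymph node. They were chosen as a list of symbols: Fos, Fosb, Jun, Junb and Jund of the AP-1 family, the zinc finger genes Egr1 and Egr2, the nuclear receptor gene Nr4a1, the ATF/CREB gene Atf3 and the antiproliferative gene Btg2. All 10 were found among the 49585 genes of the count table, all 10 were among the 30096 genes with enough counts to test, and 9 of 10, all but Egr2, were among the 4719 genes that stood clearly above the background of the libraries, described further on. The study asked how regulatory T cells (Treg) of the uterus differ from conventional CD4 T cells there and from Treg of the node, and how they change in early pregnancy. All mice were on a BALB/c background and carried the Foxp3IRES-GFP reporter, in which cells that express the Treg factor Foxp3 make green fluorescent protein; ages are not given. The first group, CD4conv, held CD4+Foxp3- cells of the non-pregnant uterus. The second, lymph node Treg, held CD4+Foxp3+CD25+ cells of the paraaortic nodes of non-pregnant mice. The third, uterine Treg, held CD4+Foxp3+CD25- cells of the non-pregnant uterus, and the fourth, pregnant uterine Treg, held CD4+Foxp3+CD25- cells of the uterus on days 6 to 8 of pregnancy, by the source label; the titles of 3 of its 4 libraries name a later last day. Lymph node and uterine Treg therefore also differ in the CD25 gate. Each group had 4 libraries, each a pool of 20 mice, or of 3 to 8 mice where pregnant; replicates carry the numbers 1, 2, 3 and 5, or 1 to 4 in the pregnant group, and values are given in that order. Sequencing ran in 2 batches, CD4conv and pregnant uterine Treg in batch 1 and the other groups in batch 2, so in the 4 comparisons that cross the batches group and batch cannot be told apart.

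Immediate early genes are switched on within minutes of a signal and without new protein synthesis, through factors already present in the cell, and their messages are short-lived. In T cells the main physiological signal is the antigen receptor, which acts through MAP kinases and calcium, and many of the same genes respond to cytokines, stress and handling of the tissue. Fos and Jun proteins pair through leucine zippers to form AP-1, which binds regulatory DNA together with factors such as NFAT; Egr factors and Nr4a1 follow receptor signalling closely, and Atf3 is best known as a stress response gene. They are expressed in many cell types, macrophages and stromal cells among them.

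The promoter sequences were read from the RefSeq windows of build GRCm38.p6. For 9 of the 10 genes 13 windows were searched, 5 of them for Egr2, and no window of Egr1 was searched. The 250 bases before the start site were searched on both strands for the cAMP response element TGACGTCA, its core TGACG, the AP-1 element TGANTCA, the Egr element GCGNGGGCG, TATAAA and the CArG box, the binding site of serum response factor. A full element TGACGTCA contains the core on each strand, so the 2 overlap. The 6 windows below are shown because their genes belong to the 2 sets, described further on, whose levels correlated over the 16 libraries. They are Fos at chr12:85473640-85473889 (plus strand), Fosb at chr7:19310046-19310295 (minus strand), Atf3 at chr1:191183334-191183583 (minus strand), Junb at chr8:84978749-84978998 (minus strand), Nr4a1 at chr15:101266596-101266845 (plus strand) and Btg2 at chr1:134079156-134079405 (minus strand). Each is written 5′ to 3′ on the strand of its gene and ends at the base before the start site, with every match in capitals.
Fos: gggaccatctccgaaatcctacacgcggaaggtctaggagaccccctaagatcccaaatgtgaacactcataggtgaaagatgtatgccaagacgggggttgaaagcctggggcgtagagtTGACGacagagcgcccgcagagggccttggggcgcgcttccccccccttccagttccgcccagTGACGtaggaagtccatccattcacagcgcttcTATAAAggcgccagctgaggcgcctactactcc
Fosb: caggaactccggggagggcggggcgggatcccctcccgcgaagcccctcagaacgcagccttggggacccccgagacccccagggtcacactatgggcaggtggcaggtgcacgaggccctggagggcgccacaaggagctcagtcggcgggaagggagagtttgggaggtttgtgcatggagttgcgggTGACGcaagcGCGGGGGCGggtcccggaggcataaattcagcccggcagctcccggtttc
Atf3: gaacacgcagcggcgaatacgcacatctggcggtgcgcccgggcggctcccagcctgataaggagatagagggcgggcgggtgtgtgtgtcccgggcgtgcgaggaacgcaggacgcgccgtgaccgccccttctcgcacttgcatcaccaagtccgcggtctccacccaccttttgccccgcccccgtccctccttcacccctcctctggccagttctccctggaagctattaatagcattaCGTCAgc
Junb: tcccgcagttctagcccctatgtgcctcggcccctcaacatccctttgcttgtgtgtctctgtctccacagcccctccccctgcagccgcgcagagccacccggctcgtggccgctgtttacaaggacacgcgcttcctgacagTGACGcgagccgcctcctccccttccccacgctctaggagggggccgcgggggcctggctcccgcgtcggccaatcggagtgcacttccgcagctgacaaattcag
Nr4a1: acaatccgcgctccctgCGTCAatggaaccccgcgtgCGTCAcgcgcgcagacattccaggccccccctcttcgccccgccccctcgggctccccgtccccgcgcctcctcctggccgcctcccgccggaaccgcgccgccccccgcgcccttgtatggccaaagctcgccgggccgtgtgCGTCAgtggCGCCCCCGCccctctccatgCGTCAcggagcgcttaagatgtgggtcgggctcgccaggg
Btg2: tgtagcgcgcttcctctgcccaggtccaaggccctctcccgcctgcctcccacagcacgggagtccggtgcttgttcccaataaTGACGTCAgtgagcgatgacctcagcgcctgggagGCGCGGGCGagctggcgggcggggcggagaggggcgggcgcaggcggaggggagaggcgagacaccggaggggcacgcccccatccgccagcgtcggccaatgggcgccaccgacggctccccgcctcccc

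The core TGACG lay in 9 of the 13 windows, against 17.8% of all 32851 promoter windows of the same length. These windows belonged to 7 of the 9 genes (Fos, Fosb, Junb, Egr2, Nr4a1, Atf3 and Btg2), Egr2 having several that overlap. Nr4a1 held 4 cores and Fos held 2, starting 129 and 66 bases before its start, with TATAAA 33 bases before it; TATAAA was in 12.4% of all windows. The full element TGACGTCA was found only in Btg2 among the 9, starting 166 bases before its start, and in 1.55% of all windows. The Egr element was in Fosb, Nr4a1 and Btg2 and in 4.7% of all windows. Of the 9 genes the CArG box was matched only in Egr2, in 4 of its 5 windows, and in 1.47% of all windows. The AP-1 element was in none of the 13 windows and in 6.75% of all. The window of Jun and that of Jund held none of the 6 motifs. The Jund window ends at base 70697738, upstream of the gene start given below, 70698949, and the bases between were not searched. These are matches of letters in short windows and say nothing of binding. Cores and Egr elements occurred in genes of both sets, so the matches did not separate the sets.

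**Figure D1:**
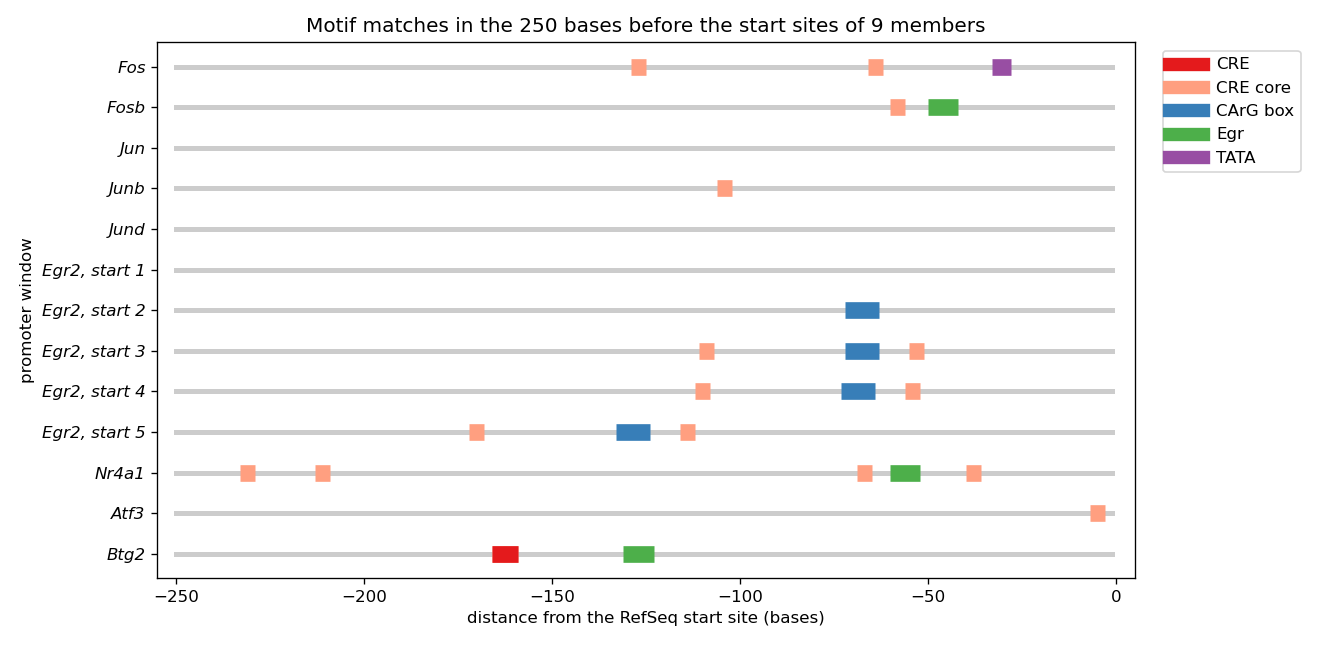
Motif matches in the 250 bases before the RefSeq start sites of 9 genes (x axis, distance from the start in bases; each grey line is 1 of 13 windows, Egr2 having 5 starts). Coloured blocks are matches to the cAMP response element, its core, the CArG box, the Egr element and TATAAA; Nr4a1 has 4 cores, Btg2 alone has the full element, and Jun and Jund have none.

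Depth and purity differed between libraries and bear on every value. Total counts ran from 1718558 to 15190212 per library. Olfactory and vomeronasal receptor genes, 1427 genes of sensory neurons, still took 0.368% to 2.27% of the counts, and reads spread in the same way over all exons would make up 8.69% to 53.6% of a library; the estimate was over 30% in 5: replicates 2 and 4 of pregnant uterine Treg, 3 and 5 of uterine Treg and 3 of lymph node Treg. Such reads lower the share of every expressed gene. Differences were therefore tested in a fit over all genes and again in a fit over the 4719 protein-coding genes whose mean level was over 5 times that background. The cell labels were checked against markers. Foxp3 stood at 0.503 to 3.26 counts per 1000000 counts of the library (CPM) in CD4conv and at 192 to 814 CPM in the Treg libraries, and Cd3e and Cd4 with 9 other T cell genes summed to 2005 to 4935 CPM in CD4conv, 4914 to 7240.0 in lymph node Treg, 2645 to 7857 in uterine Treg and 1644 to 7075 in pregnant uterine Treg.

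Markers of other cells were present. A list of 15 macrophage and dendritic cell genes summed to 5619, 19385, 24929 and 1845 CPM in the CD4conv libraries, 153, 132, 170.5 and 163 in lymph node Treg, 519.9, 309, 411 and 1331 in uterine Treg and 182, 213, 516 and 301 in pregnant uterine Treg. All 15 were detected in every group, and none was at 0 in all libraries of a group. CD4conv 2 and 3 thus carried 19385 and 24929 CPM of these messages where CD4conv 5 carried 1845, and all 4 CD4conv libraries exceeded all Treg libraries. Plasmacytoid dendritic cell genes (8) and NK cell genes (10) were also highest there, at 2686 to 6603 and 515 to 1884 CPM, against 88.5 to 551 and 49.7 to 222 CPM in the 12 Treg libraries; Cox6a2 was at 0 in the 4 uterine Treg libraries. Uterine Treg 5 stood apart in its own group, with 1331 CPM of macrophage and dendritic genes, 1169 CPM of 12 fibroblast and muscle genes and 477 CPM of 6 epithelial genes, against at most 293 and 58.2 CPM of the last pair of lists in the other uterine Treg. In bulk RNA, fewer cells of a type and less RNA per cell cannot be told apart, and the same holds for more of either.

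Junb dominated the list. Per kilobase of exon it was the highest of the 10 in 15 of 16 libraries, and Fos was the second in 14; Egr2 was the lowest in all 16. Together the 10 genes took 0.644 ± 0.174% of the counts in CD4conv, 0.671 ± 0.0961% in lymph node Treg, 0.691 ± 0.167% in uterine Treg and 0.570 ± 0.296% in pregnant uterine Treg (mean ± SD, n = 4, as for all group means here). The summed share was thus alike in the mean and varied most in pregnant uterine Treg, from 0.234% in replicate 4 to 0.847% in replicate 3. Within the Jun family Junb made up 75.7 ± 8.99% of the level per kilobase in CD4conv, 85.4 ± 2.90% in lymph node Treg, 86.0 ± 3.87% in uterine Treg and 83.0 ± 3.70% in pregnant uterine Treg. The lowest Junb shares of all were 66.2% and 70.3%, in CD4conv 3 and 2, where Jun made up 24.7% and 13.9%.

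**Figure D2:**
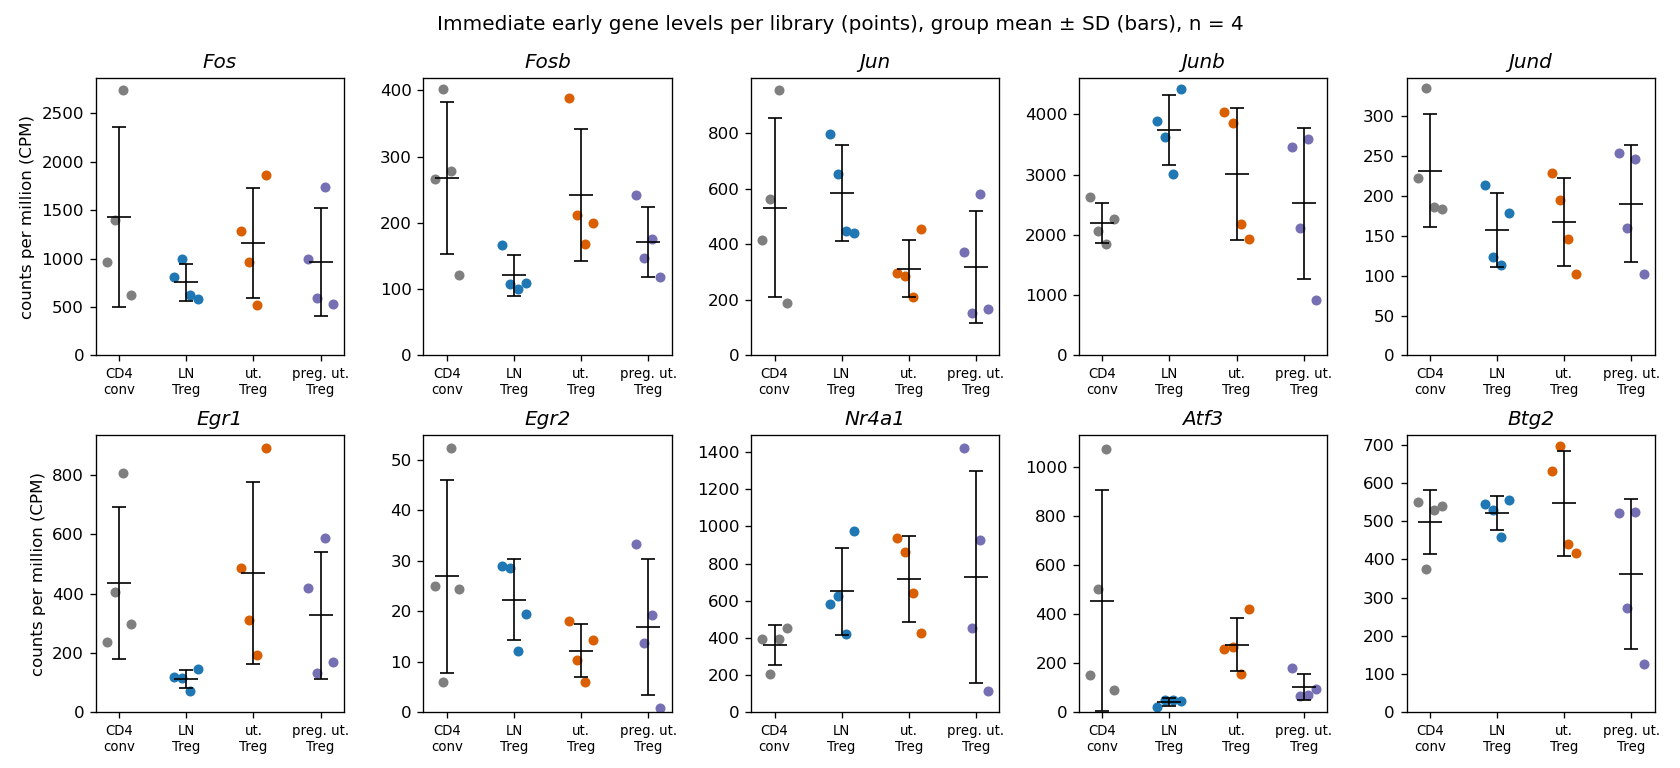
Level of each gene in CPM (linear y axis from 0) for the 4 groups; points are the 4 libraries of a group in replicate order, bars the mean ± SD. The 4 lymph node Treg libraries lie lowest for Atf3, at 20.3 to 51.9 CPM, and Egr1 there spans 72.7 to 146 CPM, while for Junb the 4 CD4conv libraries lie below all lymph node Treg.

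Fos, the prototype AP-1 partner (chromosome 12, 85473890 to 85477273, plus strand, GRCm38), was read at 965, 1395, 2744 and 623 CPM in CD4conv, 811, 993, 623 and 587 in lymph node Treg, 1283, 969, 519 and 1868 in uterine Treg and 1001, 592, 1737 and 528 in pregnant uterine Treg. Every pair of groups overlapped, and the highest libraries were CD4conv 3, uterine Treg 5 and pregnant uterine Treg 3. The largest difference in means was CD4conv over lymph node Treg, with a log2 fold change of 1.01 ± 0.44 (SE) among genes above background (edgeR adjusted p = 0.242). Fosb, a close relative of Fos that also pairs with Jun proteins (chromosome 7, 19302696 to 19310051, minus strand), was lower throughout, at 266, 403, 278 and 122 CPM in CD4conv, 167, 107, 99.5 and 110.0 in lymph node Treg, 389, 212, 168 and 200.4 in uterine Treg and 242, 147, 175 and 119 in pregnant uterine Treg. All 4 uterine Treg exceeded all 4 lymph node Treg, narrowly, since lymph node Treg 1 reached 167 CPM and uterine Treg 3 168. That difference was 1.15 ± 0.32 (edgeR adjusted p = 0.108) and did not pass. Fosb was higher in CD4conv than in lymph node Treg by 1.23 ± 0.32 among genes above background (edgeR adjusted p = 0.0224), but not in the fit over all genes (1.31 ± 0.63). The call rested on single libraries: it was lost when CD4conv 2 or 3, or lymph node Treg 2, 3 or 5, was left out, with adjusted p up to 0.0953, and it was 0.66 (adjusted p = 0.581) without CD4conv 2 and 3, the libraries with the most macrophage messages. Fos made up 89.2% to 96.3% of the Fos and Fosb level per kilobase in every library.

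Jun, the partner of Fos in classical AP-1 (chromosome 4, 95049034 to 95052222, minus strand, a single exon), was at 418, 564, 956 and 189 CPM in CD4conv, 797, 655, 449.8 and 440.1 in lymph node Treg, 298, 288, 212 and 454 in uterine Treg and 372, 153, 582 and 166 in pregnant uterine Treg. It had the opposite order of means to Fos in the Treg: 585 ± 172 CPM in lymph node Treg against 313 ± 102 CPM in uterine Treg. The groups overlapped by 1 library, uterine Treg 5, and the difference was -0.69 ± 0.42 (edgeR adjusted p = 0.608). Within CD4conv its libraries ran in the order 3, 2, 1, 5, as did Fos, Atf3 and the macrophage sum. Junb, an AP-1 subunit prominent in T cell effector programs (chromosome 8, 84974484 to 84978718, minus strand), was at 2629.9, 2057, 1850.3 and 2258 CPM in CD4conv, 3887, 3632, 3015 and 4422 in lymph node Treg, 4034, 3864, 2183 and 1937 in uterine Treg and 3453, 2119, 3599 and 920.3 in pregnant uterine Treg. All 4 CD4conv libraries lay below all 4 lymph node Treg libraries. Junb was lower in CD4conv with a change of -0.71 ± 0.21 on the log2 scale among genes above background (edgeR adjusted p = 0.0491) while the value over all genes was -0.67 ± 0.68 and did not pass. The call was lost when any 1 of the 8 libraries was left out (adjusted p = 0.0743 to 0.166). Without CD4conv 2 and 3 the difference was -0.63 (adjusted p = 0.454). Jund, the steadiest Jun gene in many cells (chromosome 8, 70698949 to 70700616, plus strand, a single exon), had means of 232 ± 71.4 CPM in CD4conv, 157 ± 46.9 CPM in lymph node Treg, 168 ± 55.4 CPM in uterine Treg and 190.4 ± 73.1 CPM with pregnancy; all groups overlapped. Neither Jun nor Jund passed in any comparison. Because the kits do not mark strand, reads of Jun and its antisense neighbour Junos, of Jund and the antisense Gm11175, and of the overlapping ends of Junb and Prdx2 cannot be told apart.

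Egr1, a zinc finger factor induced through MAP kinases and serum response factor, had the largest ratio of group means after Atf3, 4.17-fold. It was read at 118, 115, 72.7 and 146 CPM in lymph node Treg, 488, 310.1, 192 and 893 in uterine Treg, 419, 133, 587 and 169.8 in the pregnant group and 237, 405, 808 and 297 in CD4conv. All 4 uterine Treg and all 4 CD4conv libraries exceeded all lymph node Treg, while pregnant uterine Treg 2, at 133 CPM, fell inside their range. Uterine Treg were higher than lymph node Treg, a comparison within 1 batch, by 2.31 ± 0.50 among genes above background (edgeR adjusted p = 0.0287); over all genes the value was 1.75 ± 0.70 and did not pass. Uterine Treg 5, the highest at 893 CPM, was also the Treg library with the most macrophage, stromal and epithelial messages. Without it the difference was 1.61 (adjusted p = 0.0830), and the 3 others still exceeded all lymph node Treg. The call was also lost without uterine Treg 1 or any 1 lymph node library (adjusted p up to 0.116), and without the 5 libraries of high background (1.65, adjusted p = 0.186). Pregnant uterine Treg over lymph node Treg gave 1.69 ± 0.49 (adjusted p = 0.0827). CD4conv over lymph node Treg gave 2.05 ± 0.50 (adjusted p = 0.0145), which passed; it was lost without CD4conv 3 or lymph node Treg 3, and was 1.24 (adjusted p = 0.366) without CD4conv 2 and 3. The DESeq2 test over all genes also called Egr1 in that comparison (2.05 ± 0.61, adjusted p = 0.0412).

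Egr2, an Egr factor tied to T cell anergy and peripheral tolerance (chromosome 10, 67535475 to 67542188, plus strand), was the lowest of the 10, at 25.0, 6.02, 52.2 and 24.4 CPM in CD4conv, 28.9, 28.6, 12.2 and 19.5 in lymph node Treg, 18.1, 10.3, 5.94 and 14.4 in uterine Treg and 33.3, 13.8, 19.4 and 0.839 in pregnant uterine Treg. In uterine Treg 3 and pregnant uterine Treg 4 it lay below the background its exons would collect, 9.30 and 14.7 CPM, and in the latter it had 3 counts. No Egr2 difference was detectable at this depth (edgeR over all genes).

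Nr4a1, an orphan nuclear receptor used as a readout of recent antigen receptor signalling (chromosome 15, 101254269 to 101274795, plus strand), had its lowest mean in CD4conv and its highest means in the uterine Treg groups. It was read at 397, 206, 393 and 454 CPM in CD4conv, 583, 624, 421 and 976 in lymph node Treg, 939, 859.8, 641 and 426 in uterine Treg and 1424, 455, 924 and 114 in pregnant uterine Treg. Uterine Treg 5 and pregnant uterine Treg 4, both of high background, were the lowest of their groups; the former lay inside the CD4conv range and the latter below it. The pregnant group spanned 114 to 1424 CPM. Uterine Treg over CD4conv was 1.07 ± 0.39 (edgeR adjusted p = 0.120) and pregnant uterine Treg over CD4conv, within batch 1, 1.01 ± 0.38 (adjusted p = 0.111) among genes above background. Neither passed. Without the 5 high-background libraries both passed, at 1.20 (adjusted p = 0.0379) and 1.57 (adjusted p = 0.0105), and over all genes with the same libraries left out they were 1.38 (adjusted p = 0.0382) and 1.87 (adjusted p = 0.00641). That choice leaves 2 uterine and 2 pregnant uterine Treg libraries, those with the most Nr4a1 in each group (939 and 859.8 CPM, and 1424 and 924 CPM). Leaving out CD4conv 2 and 3 instead gave 0.90 and 0.84, not past the threshold (adjusted p = 0.639 and 0.577). Low T cell sums accompanied low Nr4a1 in these 2 libraries: pregnant uterine Treg 4 had the lowest T cell sum of all, 1644 CPM, and uterine Treg 5 the lowest of its group, 2645 CPM; in lymph node Treg both were lowest in replicate 3, and in CD4conv the sum was lowest in replicate 3 and Nr4a1 in replicate 2. The part of these sums in the result was not tested. Between the Treg groups Nr4a1 overlapped throughout.

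Atf3, a repressor and activator of stress responses that binds cAMP response elements (chromosome 1, 191170296 to 191218039, minus strand), showed the widest difference between groups. It was read at 20.3, 51.9, 51.8 and 46.8 CPM in lymph node Treg, 181, 67.3, 70.2 and 96.0 in pregnant uterine Treg, 257, 268, 158 and 420.2 in uterine Treg and 154, 501, 1074 and 91.1 in CD4conv. All 12 uterine libraries, from 67.3 CPM upward, lay above all 4 lymph node libraries, at most 51.9 CPM. The group means differed 10.7-fold between CD4conv and lymph node Treg, 455 ± 450.2 CPM against 42.7 ± 15.1 CPM. Atf3 was the only one of the 10 genes called in the fit over all genes, higher in CD4conv than in lymph node Treg by 3.78 ± 0.75 (edgeR adjusted p = 0.00938) and by 3.51 ± 0.70 among genes above background (adjusted p = 0.00461). The first call was lost without CD4conv 3 or lymph node Treg 1, 2 or 5 (adjusted p up to 0.0683); the second held without any 1 library, at 2.64 to 3.85 (adjusted p up to 0.021). The 4 CD4conv values followed the macrophage and dendritic sum in order, and Apoe, a macrophage gene, ran at 418, 3588, 4652 and 22.3 CPM in the same libraries. In the other groups the orders differed. Pregnant uterine Treg 1 had the lowest sum of its group, 182 CPM, and the most Atf3, 181 CPM. Uterine Treg 5 was highest in both, but uterine Treg 2, lowest in the sum at 309 CPM, had 268 CPM of Atf3. Without CD4conv 2 and 3 the difference of CD4conv over lymph node Treg was 1.49 (adjusted p = 0.157). CD4conv 5, with the least macrophage and dendritic messages of its group, had 91.1 CPM of Atf3, above every lymph node library. It still carried 1845 CPM of those messages, against 132 to 170 CPM in lymph node Treg. Their part in the difference was not tested.

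Uterine Treg exceeded lymph node Treg in Atf3 by 2.89 ± 0.68 among genes above background, at an edgeR adjusted p of 0.0505, just short of the threshold, while DESeq2 over all genes called it (2.73 ± 0.64, adjusted p = 0.0252). Without uterine Treg 5 the difference was 2.46 (adjusted p = 0.0842). Uterine Treg 1, 2 and 3 had 257, 268 and 158 CPM of Atf3 with 309 to 520 CPM of macrophage and dendritic messages, where lymph node Treg had 132 to 170 CPM of them. The part of these messages in the result was not tested. Pregnant uterine Treg were between, at 1.56 ± 0.66 over lymph node Treg (adjusted p = 0.261), -1.32 ± 0.64 against uterine Treg (adjusted p = 0.769), where only replicate 1 at 181 CPM reached into the uterine Treg range, and -1.94 ± 0.65 against CD4conv (adjusted p = 0.0772). DESeq2 over all genes called the last (-2.31, adjusted p = 0.0213), but without CD4conv 2 and 3 it was 0.08 among genes above background and -0.11 over all genes. A small RNA gene, Gm24748, lies within Atf3 on the other strand.

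Btg2, a brake on cell division that promotes shortening of messenger RNA tails (chromosome 1, 134075170 to 134079120, minus strand), was, with Jund, the most even of the list, with group means at most 1.51-fold apart. Its means were 498 ± 82.8 CPM in CD4conv, 521 ± 43.8 CPM in lymph node Treg, 546 ± 138 CPM in uterine Treg and 361 ± 196 CPM with pregnancy; all pairs of groups overlapped. CD4conv 2 was lowest of its group at 374 CPM and pregnant uterine Treg 4 lowest of all at 126 CPM. The largest difference was pregnant against non-pregnant uterine Treg, -0.60 ± 0.22 among genes above background (edgeR adjusted p = 0.674).

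**Figure D3:**
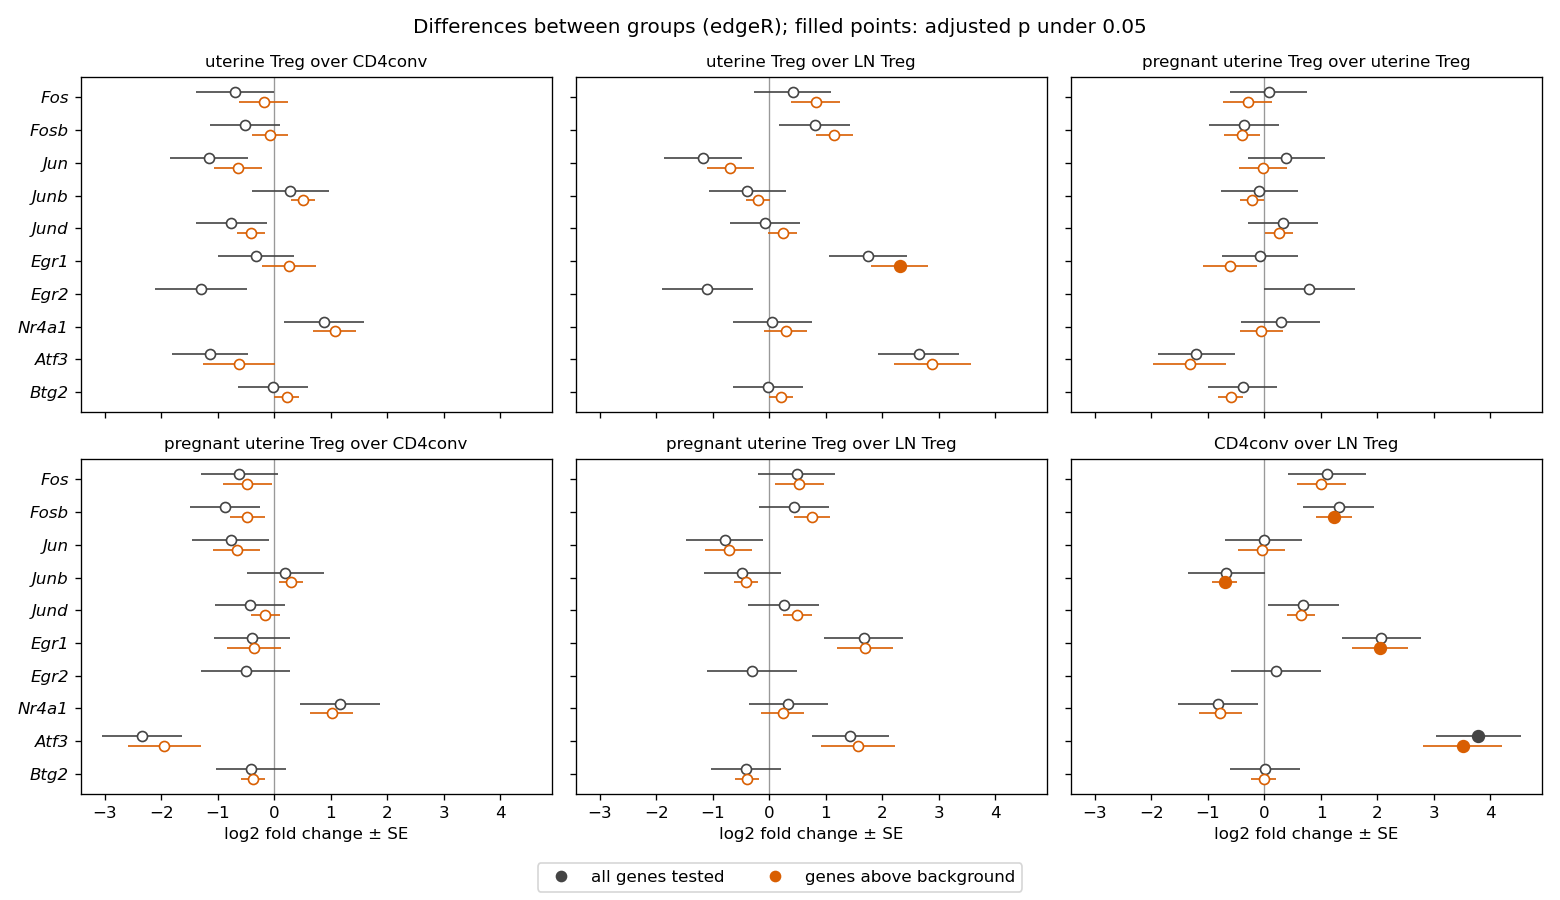
Log2 fold change ± SE of the 10 genes in 6 comparisons (x axis; positive, higher in the first group named), in the fit over all 30096 genes (grey) and over the 4719 genes above background (orange, without Egr2); filled points have an edgeR adjusted p under 0.05. Filled points occur for Atf3, Egr1, Fosb and Junb in CD4conv over lymph node Treg and for Egr1 in uterine over lymph node Treg.

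Counted by comparison, CD4conv against lymph node Treg held most of the calls. There 1 of 10 genes passed over all genes, where 0.665% of all genes tested did, and 4 of 9 among genes above background (Atf3, Egr1 and Fosb higher, Junb lower), where 7.65% did. The ranges of 3 of 9 genes were apart, against 15.3% of genes above background. DESeq2 called 2 of 10 (Atf3 and Egr1) beside 1.45% of all genes, and 3 of 10 had an unadjusted edgeR p under 0.05 beside 3.98%. In uterine against lymph node Treg 0 of 10 and 1 of 9 passed (Egr1), beside 0% and 1.29% of all, and 3 of 9 ranges were apart (Fosb, Egr1 and Atf3, all higher in the uterus) beside 7.73%. Over all genes 2 of 10 had an unadjusted p under 0.05 there, Egr1 and Atf3, beside 3.01%, and DESeq2 called 1 beside 0.1%. In pregnant uterine against lymph node Treg no gene of the list passed, beside 0% of all genes and 2.35% of genes above background, and 1 of 9 ranges was apart (Atf3) beside 10.8%. Again Egr1 and Atf3, 2 of 10, had an unadjusted p under 0.05, beside 3.1%, and DESeq2 called 0 beside 0.15%. These 3 comparisons share the lymph node libraries.

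In uterine Treg against CD4conv 0 of 10 and 0 of 9 passed, beside 0.518% and 6.1%, and no range was apart, beside 10.3%. Unadjusted, 0 had an edgeR p under 0.05 beside 5.33%, and DESeq2 called 0 beside 1.1%. In pregnant uterine Treg against CD4conv 0 of 10 and 0 of 9 passed, beside 0.432% and 8.39%, and no range was apart, beside 11.7%. Atf3 alone had an unadjusted p under 0.05, 1 of 10 beside 4.79%, and DESeq2 called it, beside 1.1% of all genes. None of the genes passed with pregnancy: 0 of 10 and 0 of 9 in pregnant against non-pregnant uterine Treg, beside 0% of all genes in both fits, with no range apart beside 1.59%. Unadjusted, 0 had an edgeR p under 0.05 beside 2.73%, and DESeq2 called 0 beside 0.04%.

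The median log2 fold change of the list among genes above background was 0.65 in CD4conv over lymph node Treg, 0.29 in uterine over lymph node Treg and 0.49 in pregnant uterine over lymph node Treg, with medians of all those genes at 0.0064, 0.048 and 0.050. It was -0.08 in uterine Treg over CD4conv, -0.38 in pregnant uterine Treg over CD4conv and -0.29 in pregnant over non-pregnant uterine Treg, with medians of all at 0.019, 0.031 and 0.0030. Over all genes the medians of the 10 were 0.44, 0.016 and 0.30 in the 3 comparisons with lymph node Treg, and -0.60, -0.47 and -0.0018 in the others, in the same order, with medians of all at -0.021, -0.057, 0.060, -0.046, 0.073 and 0.11. The fit chosen moved the balance of calls over the whole table: in uterine Treg against CD4conv 10 genes were higher and 146 lower over all genes, against 147 and 141 among genes above background, and in pregnant uterine Treg against CD4conv 10 and 120 against 194 and 202. In CD4conv against lymph node Treg the numbers were 178 and 22 against 225 and 136. In uterine and pregnant uterine over lymph node Treg 0 passed over all genes, and 44 rose and 17 fell, and 74 rose and 37 fell, among genes above background.

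**Figure D4:**
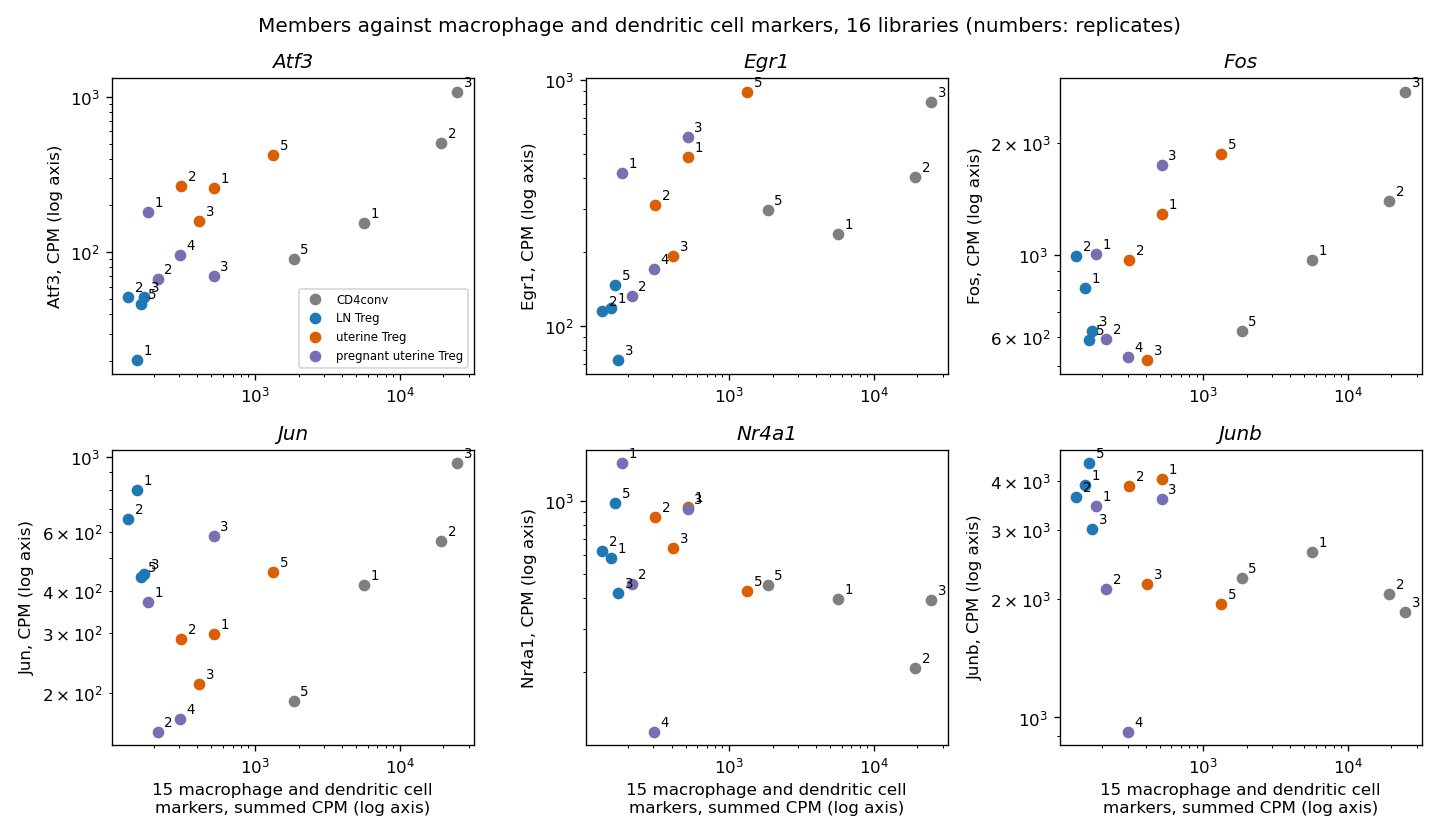
Level of 6 genes (y axes, CPM, log scale) against the summed CPM of 15 macrophage and dendritic cell markers (x axes, log scale) in 16 libraries, coloured by group and numbered by replicate. The CD4conv libraries spread from 1845 to 24929 CPM of markers, and Atf3, Fos and Jun rank there as the markers do, whereas Nr4a1 and Junb do not.

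Among the 9 genes above background, 7 fell into 2 sets, in the scaling over those genes, with positive correlations within sets and r at 0.08 or below between them. Jun and Jund belonged to neither as a whole. Correlations were taken on log2 CPM over the 16 libraries, scaled over the genes above background, and describe these libraries only, since points share a library, its depth and its background. Fos, Egr1, Atf3 and Fosb formed the first set, with Pearson r of 0.82 for Fos and Egr1, 0.81 for Egr1 and Atf3, 0.79 for Atf3 and Fosb and 0.62 to 0.72 for the other pairs. Junb, Nr4a1 and Btg2 formed the second, with r of 0.75 for Junb and Nr4a1, 0.56 for Nr4a1 and Btg2 and 0.53 for Junb and Btg2. Between the sets r ran from -0.57, for Atf3 and Junb, to 0.08. Jun correlated with Fos at 0.60, just under the lowest pair within the first set (0.62), and Jund with Fosb at 0.67, above that pair. Both Jun and Jund were at 0.34 or below with the other genes of the first set. After removal of the group means Jun had r of 0.92 to Fos, 0.77 to Egr1 and 0.62 to Atf3, and the second set ran from 0.75 to 0.91. Fosb then stood less close to the first set, at 0.29 to Egr1, 0.48 to Fos and 0.51 to Atf3, and its r to Jund was 0.63. Of the 36 pairs 11 (30.6%) exceeded 0.5 over 16 libraries, where 9.72% of all pairs of genes above background did. Scaled over all genes tested, 32 of 45 pairs of the 10 genes (71.1%) exceeded 0.5, beside 32.0% of all pairs, and each gene fell as the background share rose, with r from -0.39 for Atf3 to -0.94 for Btg2. With that scaling no pair of the list was below 0, and the sets were less apart. Pairs between them then ran from 0.06, for Atf3 and Junb, to 0.68, for Fos and Btg2. In the scaling over genes above background, r to the background share was -0.55 for Btg2, -0.39 for Junb and -0.36 for Nr4a1. In the first set it was -0.13 for Fos, -0.15 for Fosb, -0.14 for Egr1 and 0.023 for Atf3. Jun was at -0.27 and Jund at -0.47, and Jund had r of 0.73 to the log2 total counts. The part of background and depth in the sets was not tested.

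**Figure D5:**
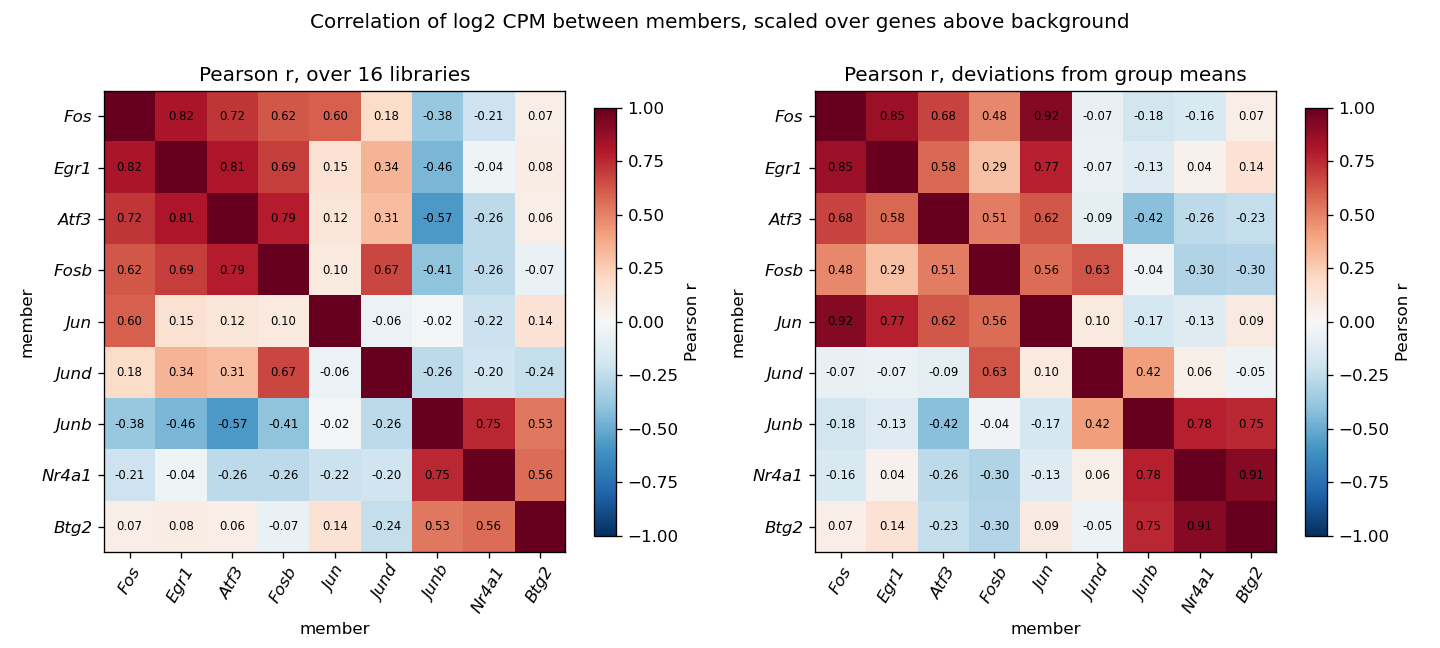
Pearson r of log2 CPM between 9 genes, scaled over genes above background, over 16 libraries (left) and over deviations from the 4 group means (right); both axes list the genes, and colour gives r from -1 to 1. On the left Fos, Egr1, Atf3 and Fosb form a block apart from Junb, Nr4a1 and Btg2; on the right Jun stands close to Fos, at 0.92, while Fosb is closest to Jund, at 0.63.

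Genes outside the list that ran closest to each gene were taken from the same libraries as the sets. That they differ between the sets follows from how the sets were drawn and is not separate support for them. Over the 16 libraries, among 4460 protein-coding genes at 20 CPM or more and above background, Fos ran closest to Zfp36 (r = 0.86), which encodes an RNA-binding protein that destabilizes messages, then Gadd45g (0.83), a stress and growth arrest gene, and Tmem176b (0.83). Egr1 ran closest to Rnase4 (0.84), Prex1 (0.81) and Lgmn (0.81), the last encoding a lysosomal protease. Atf3 ran closest to Zfand5 (0.87), Sap30 (0.87) and Rnase4 (0.84). With scaling over all genes, given here for Atf3 only, the closest were Apoe (0.89), Cd14 (0.88) and Sap30 (0.87). Apoe and Cd14 are known as macrophage genes, and a part of macrophage messages in this was not tested. Fosb ran closest to Tmbim6 (0.89), Mrpl24 (0.86) and Sap30 (0.85), and Jun to Rhob (0.84), itself a gene of rapid response, Ckb (0.83) and Hspa8 (0.81). In the other set Junb ran closest to Ppp1r15a (0.95), a phosphatase subunit of the stress response, 1110032F04Rik (0.93) and the T cell surface gene Cd2 (0.90). Nr4a1 ran closest to Sh3kbp1 (0.93), Cdk17 (0.92) and Ube2h (0.89), Btg2 to Fzr1 (0.93), Lrrc47 (0.93) and Irak1 (0.91), and Jund to Klf13 (0.88) and Wdr26 (0.85).

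Other genes of these pathways gave a wider view. Of 23 other AP-1 and related leucine zipper genes, 22 were tested and 11 were above background. Over all genes edgeR called 0 in each comparison, beside 0% to 0.665% of all genes. DESeq2 called Ddit3 and Nfe2l2, higher in CD4conv than in uterine Treg (2 of 22 beside 1.1%). It also called Nfe2l2, Atf6, Fosl2 and Batf3, higher in CD4conv than in lymph node Treg (4 of 22 beside 1.45%). In the edgeR fit of genes above background Fosl2, which encodes the Fos relative Fra-2, was higher in all 3 uterine groups than in lymph node Treg, at 109 ± 10.7 against 49.5 ± 15.7 CPM in uterine Treg (1.33 ± 0.31, adjusted p = 0.0395), 100.4 ± 26.7 CPM with pregnancy (1.35 ± 0.31, adjusted p = 0.0272) and 149 ± 48.1 CPM in CD4conv (1.68 ± 0.31, adjusted p = 0.00182). Its ranges were apart from lymph node Treg in each. Maf, a leucine zipper factor of effector T cells, was higher in pregnant uterine Treg than in lymph node Treg, at 149.5 ± 31.1 against 68.1 ± 15.9 CPM (1.51 ± 0.36, adjusted p = 0.0321), and than in CD4conv (1.28 ± 0.36, adjusted p = 0.0329). Nfe2l2, the oxidative stress factor, was lower in uterine Treg than in CD4conv (-1.95 ± 0.51, adjusted p = 0.0271) and higher in CD4conv than in lymph node Treg (2.30 ± 0.52, adjusted p = 0.00815). Ddit3, a gene of the unfolded protein response, was lower in uterine Treg (-2.24 ± 0.45, adjusted p = 0.00452) and pregnant uterine Treg (-1.43 ± 0.44, adjusted p = 0.0493) than in CD4conv, and Atf4, its upstream factor, in pregnant uterine Treg (-0.92 ± 0.27, adjusted p = 0.0431). The macrophage messages of CD4conv 2 and 3 stand beside each of these CD4conv differences, and their part was not tested. In all, 2 of 11 passed in CD4conv over lymph node Treg (7.65% of all genes above background), 1 in uterine (1.29%) and 2 in pregnant uterine over lymph node Treg (2.35%), all higher. In uterine Treg 2 were lower than in CD4conv (6.1%), in pregnant uterine Treg 1 was higher and 2 lower (8.39%), and 0 passed with pregnancy (0%).

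Of 35 other primary response genes 34 were matched and tested and 33 were above background. Dusp4, a phosphatase that switches off MAP kinases in the nucleus, was the only one edgeR called over all genes, 1 of 34 beside 0.665%. It was lower in CD4conv than in lymph node Treg (-3.08 ± 0.68, edgeR adjusted p = 0.0238), at 32.9 ± 20.9 against 273 ± 119 CPM. DESeq2 over all genes called Dusp4 there and in both uterine Treg groups over CD4conv (1 of 34 in each, beside 1.1%). It also called Ier3, a stress response gene, higher in CD4conv than in lymph node Treg at 58.2 ± 56.4 against 1.89 ± 0.901 CPM. That made 2 of 34 in CD4conv against lymph node Treg, beside 1.45%. Among genes above background Dusp4 was higher in uterine Treg (2.37 ± 0.40, edgeR adjusted p = 0.000912) and pregnant uterine Treg (2.57 ± 0.40, adjusted p = 0.00049) than in CD4conv. Dusp2, a related phosphatase, was lower in uterine Treg than in lymph node Treg, at 106 ± 53.0 against 415 ± 80.3 CPM (-1.87 ± 0.30, adjusted p = 0.00373), and lower in pregnant uterine Treg than in lymph node Treg (-1.98 ± 0.30, adjusted p = 0.00138) and CD4conv (-1.02 ± 0.30, adjusted p = 0.0391). Egr1 and Dusp2 thus went in opposite directions between uterine and lymph node Treg. Zfp36l1, of the same RNA-binding family as Zfp36, was lower than in lymph node Treg in CD4conv (-1.69 ± 0.27, adjusted p = 0.000482) and pregnant uterine Treg (-1.10 ± 0.26, adjusted p = 0.0333). Nfkbia, the inhibitor of NF-kB, was lower in CD4conv than in lymph node Treg (-1.35 ± 0.25, adjusted p = 0.00207), and higher in uterine Treg (0.89 ± 0.25, adjusted p = 0.0415) and pregnant uterine Treg (0.88 ± 0.25, adjusted p = 0.0383) than in CD4conv. Ppp1r15a was lower in CD4conv than in lymph node Treg (-1.04 ± 0.24, adjusted p = 0.0100). Socs3, a cytokine signalling inhibitor, was higher in CD4conv than in lymph node Treg (1.15 ± 0.29, adjusted p = 0.0176) whereas uterine Treg had less of it than CD4conv (-1.15 ± 0.29, adjusted p = 0.0214), while Rgs2 was higher in uterine Treg than in CD4conv (1.08 ± 0.25, adjusted p = 0.0132). These are the genes of the list that passed; of the 33, 1 rose and 4 fell in CD4conv over lymph node Treg, beside 7.65% of all genes above background called, 3 rose and 1 fell in uterine Treg over CD4conv (6.1%), 2 rose and 1 fell in pregnant uterine Treg over CD4conv (8.39%), and 1 and 2 fell in uterine (1.29%) and pregnant uterine (2.35%) over lymph node Treg. All differences from CD4conv here stand beside the 1845 to 24929 CPM of macrophage and dendritic messages in that group, whose part was not tested. None passed with pregnancy.

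The other Egr and Nr4a genes gave no call. Of 6 (Egr3, Egr4, Nr4a2, Nr4a3, Nab1 and Nab2), 5 were tested over all genes and 3 among genes above background. In any comparison 0 passed, beside 0% to 0.665% of all genes tested and 0% to 8.39% of genes above background. Nr4a2 and Nr4a3, the close relatives of Nr4a1, stood at 122 ± 64.7 against 97.9 ± 41.9 CPM and 95.5 ± 23.1 against 131 ± 33.9 CPM in uterine against lymph node Treg, with changes of 0.43 ± 0.32, adjusted p = 0.714 and -0.29 ± 0.36, adjusted p = 0.850. Egr3 was at 1.23 ± 2.02 against 1.42 ± 0.952 CPM in the same groups and was not tested. Of 28 kinases and factors upstream of immediate early genes, 28 were tested and 21 were above background. Among the latter, Mapkapk2, a kinase downstream of p38, was the only call, 1 of 21 beside 8.39%. It was lower in pregnant uterine Treg than in CD4conv (-1.01 ± 0.25, edgeR adjusted p = 0.0176). Over all genes edgeR called 0, beside 0% to 0.665%, and DESeq2 called Mef2a in uterine Treg against CD4conv, 1 of 28 beside 1.1%.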

How the data were processed

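RNA of sorted T cells was sequenced from 16 pooled samples in 4 groups of 4, after SMART-Seq v4 amplification and Nextera XT library preparation, which do not mark strand, per the labels' protocols. The authors deposited raw counts for 49585 genes; the 16 single-library files were identical to the table. Trimmomatic, HISAT2, SAMtools, featureCounts, DESeq2 and GRCm38 are named in the submitters' processing notes; their versions: not given in the sources used here. GENCODE M21 named 49326 genes. Here the counts were tested with edgeR 4.0.16 (R 4.3.3; TMM, filterByExpr, robust quasi-likelihood, all 16 libraries, Benjamini-Hochberg threshold 0.05) over 30096 genes, and again over 4719 protein-coding genes with a mean over 5 times the background of 1427 receptor genes. The SE is the log2 fold change divided by the root of F. DESeq2 1.42.0, RLE factors, no filter, 2-group fits, a replicate block and libraries left out were alternatives; the fits without CD4conv 2 and 3, the block and left-out libraries above background, and the second scaling of correlations were chosen after seeing the data. Replicates are separate pools of mice by the labels. CPM is counts per 1000000 of a library's total. Totals of 1718558 to 15190212 counts limit low genes such as Egr2. The tests were tried on simulated data first. The 10 genes and all lists were chosen with earlier results of these data known. Named genes are the 10, those of other lists past the threshold (at most 4 a comparison) or among the 3 most abundant of a list, and the 3 with the highest r to each of the 10 above background; 1 of these is not reported here.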

Additional observations from a re-analysis of the deposited data

Results flagged for a closer look

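In 40 sets of 4 libraries (10 genes in 4 groups), 3 had 1 library far from the other 3 by Dixon's test at the 95% level, which chance alone does in about 1 in 20 sets. Fosb in lymph node Treg was highest in replicate 1, at 167 CPM, where the others had 99.5 to 110.0 CPM. Atf3 in the same library was the lowest of its group, at 20.3 CPM, where the others had 46.8 to 51.9 CPM. Btg2 in CD4conv was lowest in replicate 2, at 374 CPM, where the others had 528 to 549.8 CPM. CD4conv 2 also had 19385 CPM of macrophage and dendritic messages, and its part in that value was not tested.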

How the results depend on the processing

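Over all genes the count of the 10 called was 0 in 5 comparisons and 1 (Atf3, higher) in CD4conv over lymph node Treg, with 1 there under RLE factors too. DESeq2 gave 1 higher in uterine over lymph node Treg, 1 lower in pregnant uterine Treg than in CD4conv and 2 higher in CD4conv over lymph node Treg. Genes above background gave 1 higher in uterine over lymph node Treg, and 3 higher and 1 lower in CD4conv over lymph node Treg. Without the 5 libraries over 30% background, 1 was higher in uterine and 1 in pregnant uterine Treg over CD4conv. With 1 library left out, the count higher in CD4conv over lymph node Treg ran from 0 to 1, and without CD4conv 2 and 3 it was 0.

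Among genes above background, leaving out 1 library gave 0 to 1 higher in uterine over lymph node Treg, 0 to 1 higher (1 without pregnant uterine Treg 4) and 0 to 1 lower (1 without CD4conv 1 or 5) in pregnant uterine Treg over CD4conv, and 1 to 3 higher and 0 to 0 lower in CD4conv over lymph node Treg. Without the high-background libraries 2 were higher in uterine and 1 in pregnant uterine Treg over CD4conv, and 0 in uterine over lymph node Treg. Without CD4conv 2 and 3, 0 were higher and 0 lower in CD4conv over lymph node Treg. Fewer libraries were tested in each of these. Over all values of the 10 genes in the 6 comparisons, the sign turned in 52 of 480 with 1 library left out and 49 of 444 under other settings over all genes, and in 24 of 432 and 19 of 135 among genes above background; none of the turned values passed. Of the fold changes printed for the 10, those that turned were Junb in uterine Treg over CD4conv without uterine Treg 2 (-0.11; 0.52 without uterine Treg 5), and without CD4conv 2 and 3 Jun in uterine Treg (0.28) and Atf3 in pregnant uterine Treg (0.076) over CD4conv among genes above background and Fos in CD4conv over lymph node Treg over all genes (-0.044); Btg2 in pregnant over non-pregnant uterine Treg was 0.0097 without uterine Treg 2, and down to -0.79 without pregnant uterine Treg 3. The cause was not tested.

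The replicate block over all genes changed no count of the 10, which stayed at 0 and, in CD4conv over lymph node Treg, 1. Among genes above background the block gave 1 higher in uterine Treg over CD4conv, 1 higher in pregnant uterine Treg over CD4conv (Nr4a1 in both) and 0 in uterine over lymph node Treg. Whether equal numbers in different groups mark the same mice is not stated. The r of same-numbered deviations ran from -0.40 to 0.37, which cannot settle it, since the libraries also differ in depth and background. Every library was closest to its own number only in pregnant uterine Treg and CD4conv, 3 of 3. Calls over the whole table, in the order of all libraries, DESeq2 and without CD4conv 2 and 3, were 200, 435 and 42 in CD4conv against lymph node Treg, 130, 330 and 27 in pregnant uterine Treg against CD4conv, and 156, 330 and 24 in uterine Treg against CD4conv. With 1 library left out they ran from 106 (without lymph node Treg 5) to 237, from 72 (without CD4conv 3) to 162 and from 72 (without CD4conv 3) to 170. Without high-background libraries they were 272, 230 and 427, and with only the groups compared 414, 78 and 148. RLE in place of TMM moved the median of all genes in uterine Treg over CD4conv from -0.046 to 0.139 and in pregnant uterine Treg over CD4conv from 0.073 to 0.199.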

Other observations

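Heat shock genes, which encode chaperones and respond to stress and to tissue handling, gave no call. Of 12 genes, 12 were tested over all genes and 9 among genes above background. In any of the 6 comparisons edgeR called 0, beside 0% to 0.665% of all genes and 0% to 8.39% of genes above background. DESeq2 over all genes also called 0, beside 0.04% to 1.45%. The most abundant over the 16 libraries were Hspa5 (1469.6 CPM), Hsp90ab1 (901 CPM) and Hspa8 (519.8 CPM). All 9 above background had a negative log2 fold change in uterine over lymph node Treg, with a median of -0.56, and in pregnant uterine over lymph node Treg, with a median of -0.42, where the medians of all genes above background were 0.0483 and 0.0499. In the edgeR fit over all genes 1 and 3 of the 12 were positive in these comparisons, and with DESeq2 2 and 3. The share of all genes with a negative change was not counted. In the same 2 comparisons 7 and 6 of the 9 immediate early genes above background had positive fold changes, Atf3 and Egr1 among them. Jun (-0.69 and -0.72) and Junb (-0.19 and -0.41) were negative in both, and Btg2 (-0.40) in the second. A part of tissue handling in either list was not tested. Hspa8, which encodes the constitutive chaperone Hsc70, had 467 ± 119 against 653 ± 91.5 CPM in uterine against lymph node Treg (-0.34 ± 0.19, adjusted p = 0.553), and Hsp90ab1 645 ± 217 against 1318 ± 394 CPM (-0.90 ± 0.29, adjusted p = 0.204). These 2 comparisons share the lymph node libraries.

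By mean CPM over the 16 libraries, the most abundant of the other leucine zipper genes were Atf4 (237), Mafk (136) and Cebpb (125). Among the other Egr and Nr4a genes they were Nr4a3 (105), Nab1 (102) and Nr4a2 (97.6), among the primary response genes Tnfaip3 (3999.6), Btg1 (1929) and Nfkbia (1629.8), and among the upstream kinases and factors Mapkapk2 (227), Rasgrp1 (218) and Mef2d (212).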
